A study of Bos taurus with 8 samples.

Results

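Fibro-adipogenic progenitors (FAPs) of bovine skeletal muscle were examined after 72 h in culture, at passage 0 (P0). They were taken as the P0 cells that carry the FAP label in the authors' cell annotation, and numbered 5756 of the 9591 annotated cells of that library and of the 36129 cells of the series. The cells came from 9 Belgian Blue cattle, 5 calves (animals 2, 4, 5, 7 and 10) and 4 adults (animals 1, 6, 8 and 9), of which 6 were female and 3 male. No animal carried a transgene or received a treatment. Semitendinosus muscle was digested with collagenase, and by the study's methods the unsorted mononuclear cells of each animal were plated as a culture of their own in serum-free growth medium on fibronectin. The sample label of P0 lists SCs and FAPs beside unsorted cells, and whether sorted cells entered the shares of cell types was not tested. The cultures were pooled in equal ratios just before loading, run as 1 droplet library with 3' capture, and assigned back to their animals by genotype. Each animal gave 452 to 946 FAPs, and the animal, not the cell, was the replicate throughout. FAPs held 48.5% (animal 4) to 78.1% (animal 5) of the annotated cells of an animal.

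FAPs are the mesenchymal stromal cells between the fibres of skeletal muscle. They carry the receptor PDGFRα, secrete much of the interstitial matrix and signal to satellite cells during repair, and they are the source of intramuscular fat and fibrosis. The other cell types that persisted at P0 were satellite cells (SCs, the myogenic stem cells), monocytes/macrophages (MΦ, Mono/macro in plots), endothelial cells of blood vessels (VECs) and of lymphatics (LECs), glial cells, and SMMCs, a class of smooth muscle and other mesenchymal cells.

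The counts are unique molecular identifiers (UMIs), summed over the FAPs of each animal and given as CPM, the count scaled to a common total of UMIs. FAP sums held 10321593 to 23061306 UMIs per animal, against medians of 4455953 for SCs, 1100335 for VECs, 451328 for SMMCs, 247530 for LECs and 145814 for MΦ. SCs and VECs had at least 10 cells in 9 animals, and SMMCs, LECs and MΦ in 7 animals each. The 48 glial cells entered no comparison. Of the P0 barcodes, 39.4% were doublets of 2 animals by genotype and are not among these cells. Doublets within 1 animal cannot be seen that way, and were estimated at 10.3% of the singlets if animals pair at random. P0 FAPs shared 4 to 16 barcodes with the annotated cells of another library.

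The FAPs of animal 5, a calf, stood apart from the other 8. Of 5074 genes with a mean of at least 20 CPM (with or without a symbol), 203 lay far above and 195 far below the other animals (by Dixon's gap ratio at its 95% limit), while no other animal had more than 30 above or 12 below. SAA3, an acute-phase serum amyloid, was at 783 CPM in animal 5 and at 33.2 to 97.6 CPM in the others. The complement genes CFB (602 CPM against 56.7 to 167 CPM), C1R (158 against 25.4 to 58.2 CPM) and C3 (62.6 against 16.4 to 30.1 CPM) were also above every other animal. HPGD, which breaks down prostaglandin E2, was at 67.2 CPM in animal 5 and at 195 to 860 CPM in the others, and TFPI2, a protease inhibitor of the matrix, was at 145 against 444 to 811 CPM. Calls of FAP genes that needed this animal are named with the list of 26 genes.

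**Figure D1:**
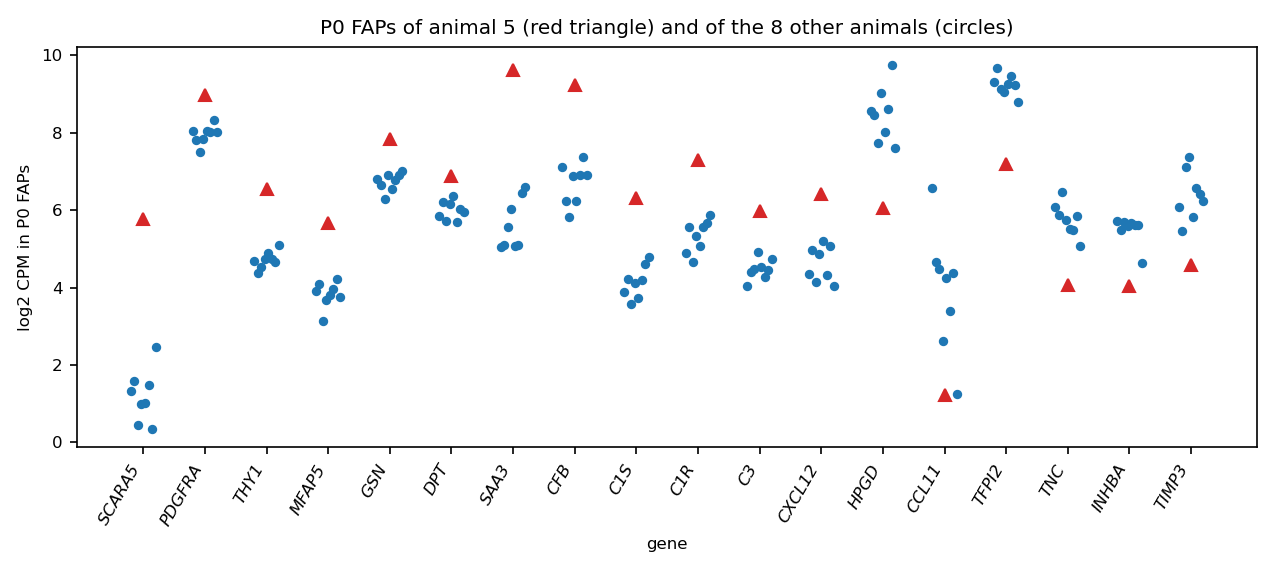
Levels of 18 genes in P0 FAPs, with the genes along the horizontal axis and log2 CPM on the vertical axis. Each point is 1 animal, and animal 5 is the red triangle. SAA3 of animal 5 lies at 783 CPM with the other 8 animals at 33.2 to 97.6 CPM, and HPGD of animal 5 lies below all 8.

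The levels of PDGFRA, ITGB3 and SCARA5 were set beside the label. The authors made the label from clusters of the same values, so this is a description and no test of it. PDGFRA, the receptor for platelet-derived growth factor that defines FAPs, was at 180, 261 and 500 CPM in the lowest, median and highest animal in FAPs (277 ± 91.6 CPM, SD, n = 9), and at 33.6 to 100.5 CPM in SCs, 16.4 to 29.7 in VECs, 12.7 to 42.1 in SMMCs and 8.08 to 114 in LECs. In MΦ it was at 72.8, 117 and 180 CPM (179.9 in the highest, against 180.1 in the lowest animal of FAPs). FAPs thus lay above all 5 types, but only just above the highest MΦ value. The log2 fold change (log2FC) of FAPs over the other type was 2.18 ± 0.22 (SE) for SCs, 3.65 ± 0.21 for VECs, 3.30 ± 0.28 for SMMCs, 3.19 ± 0.45 for LECs and 1.26 ± 0.29 for MΦ. At least 1 PDGFRA UMI was found in 86.7% of FAPs (95% exact binomial interval 85.8 to 87.5%, median 24188 UMIs per cell) and in 31.2% of MΦ (23.7 to 39.5%, median 7567 UMIs). The highest share among the other types was that of SCs, at 55.8% (53.8 to 57.9%, median 18203 UMIs). With every cell thinned to 5000 UMIs, which left out 624 FAPs, 43 MΦ and 72 SCs, the shares were 65.2% in FAPs, 24.5% in MΦ and 24.8% in SCs. These intervals cover counting error only.

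ITGB3, the integrin β3 subunit, was less particular to FAPs. It was at 35.9, 41.2 and 68.1 CPM in FAPs, above the 3.37 to 9.79 CPM of SCs (log2FC 2.92 ± 0.19) and the 3.6 to 30.8 CPM of VECs (1.32 ± 0.19). In SMMCs (2.63 to 88.2 CPM), LECs (20.3 to 74.2 CPM) and MΦ (15.9 to 61.7 CPM) the animals overlapped with those of FAPs. The log2FC was 1.08 ± 0.33 for SMMCs, 0.39 ± 0.28 for LECs and 0.55 ± 0.33 for MΦ, and those of LECs and MΦ did not pass the threshold.

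SCARA5, a scavenger receptor for ferritin, was at a low level in the FAPs of most animals. It was at 1.27, 2.49 and 54.9 CPM in FAPs, where the highest value was animal 5 and the next was 5.55 CPM. A SCARA5 UMI was found in 42.2% of the FAPs of animal 5 and in 1.95 to 8.56% of those of the others. Only the comparison with SCs passed the threshold, with a log2FC of 3.18 ± 1.10. Without animal 5 it was 1.70 ± 0.43 and still passed. With the animal as a block SCARA5 was also called over VECs (2.45 ± 0.41), and likewise by DESeq2 (1.85). In muscle, before culture, animal 5 was not apart, with 579 CPM of SCARA5 in its FAPs against 336 to 671 CPM in the other 9 animals. Thus PDGFRA went with the label in all 9 animals, ITGB3 in part, and SCARA5 mainly in 1 animal.

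**Figure D2:**
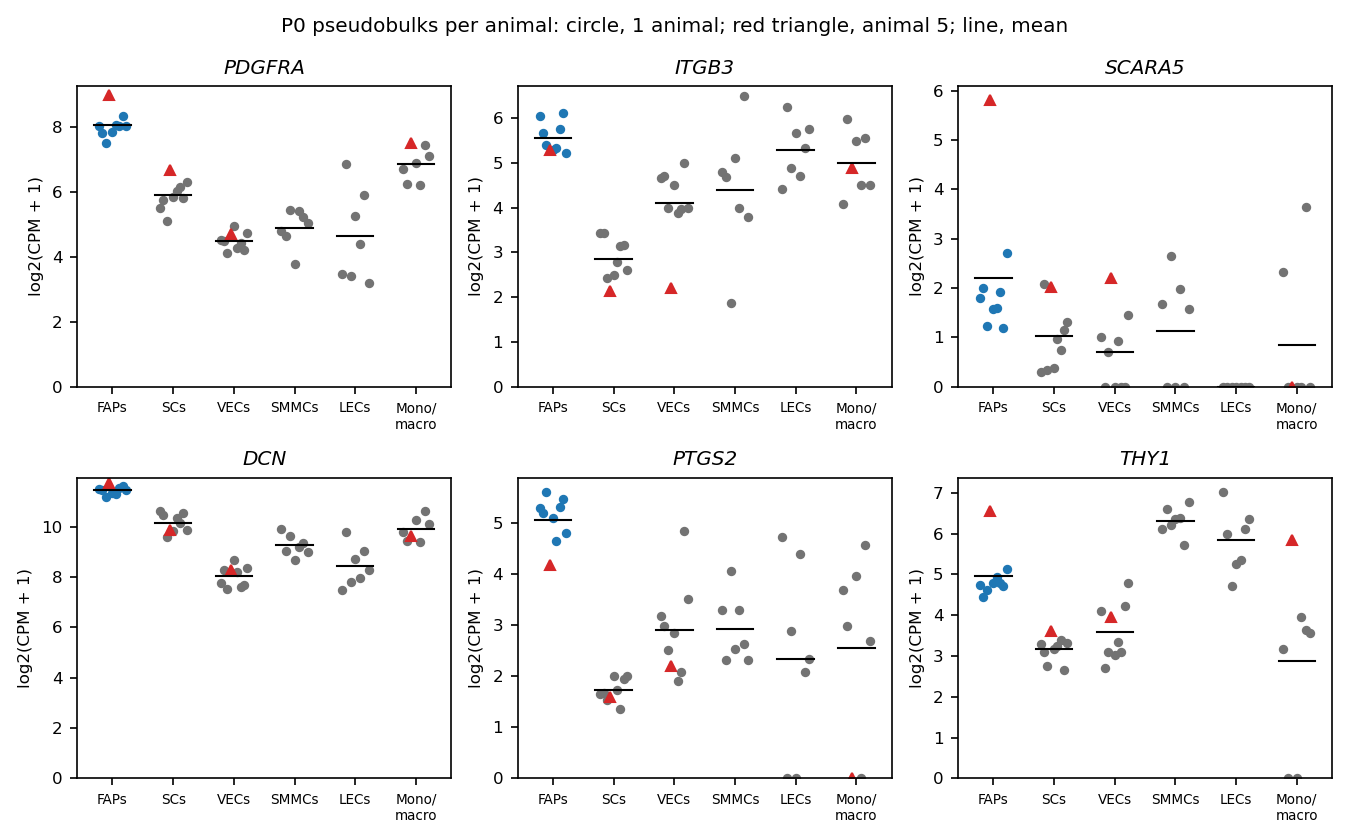
Levels of PDGFRA, ITGB3, SCARA5, DCN, PTGS2 and THY1 at P0, as log2(CPM + 1) on the vertical axis, for FAPs, SCs, VECs, SMMCs, LECs and MΦ. Each point is 1 animal (9 for FAPs, SCs and VECs, 7 for the rest), and animal 5 is the red triangle. PDGFRA of FAPs lies between 180 and 500 CPM, above every SC, VEC, SMMC and LEC value, while SCARA5 is high only in the FAPs of animal 5.

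The question put to these cells was which genes still mark a FAP at P0. A gene was called at a Benjamini-Hochberg adjusted p below 0.05 in edgeR's quasi-likelihood test and an absolute log2FC above 1. Each pair of types had 1 model, with no term for the animal, so sums of the same animal were treated as independent. Since the authors named the types from clusters of the same values, a call is a rule of size and of agreement between animals and not evidence that the types differ. The 5 comparisons also share the same FAP sums. Against SCs, 508 of 10827 genes (4.69%) were called higher in FAPs and 647 (5.98%) lower. Against SMMCs, 526 of 10929 (4.81%) were higher and 705 (6.45%) lower. Against VECs, 1400 of 10420 (13.4%) were higher and 1453 (13.9%) lower. Against LECs, 1286 of 10844 (11.9%) were higher and 1097 (10.1%) lower, and against MΦ 653 of 10783 (6.06%) and 793 (7.35%). The order of the types by these counts was another with FAP sums thinned to the UMIs of the other type. That setting used only animals with both types, which left 7 of 9 FAP sums against SMMCs, LECs and MΦ. MΦ then gave the fewest genes (71 higher and 227 lower), followed by SMMCs (122 and 261), LECs (247 and 338), SCs (357 and 526) and VECs (756 and 965). For SMMCs, LECs and MΦ, the loss of UMIs and the loss of animals cannot be told apart. The types themselves still differed in depth (a median of 145814 UMIs in MΦ and 4455953 in SCs), so this order is not one of likeness to FAPs. Of the 10177 genes tested against all 5 types, 26 (0.255%) were higher in FAPs than in every one of them, and 11 (0.108%) were lower.

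Genes that act in the matrix were grouped from the list by their known roles. DCN, the small proteoglycan decorin, which binds collagen fibrils, was at 2367, 2851 and 3451 CPM in FAPs, with SCs at 765 to 1592, MΦ at 677 to 1599, SMMCs at 412 to 962, LECs at 177 to 891 and VECs at 183 to 415 CPM. No other type overlapped with FAPs. Its log2FC ran from 1.29 ± 0.14 (SCs) to 3.35 ± 0.16 (VECs). DPT (dermatopontin, a decorin-binding matrix protein) was at 51.8, 65.0 and 119 CPM in FAPs, with a log2FC of 3.48 ± 0.21 over SCs and 1.56 ± 0.41 over MΦ, where 1 animal reached 54.3 CPM. SERPINF1 (the anti-angiogenic factor PEDF) was at 110, 147 and 228 CPM in FAPs and at no more than 78.7 CPM in any other type and animal. Of 12 canonical stromal markers, only DCN and DPT were called higher than every type, which makes 2. Of the 11 tested, 7 were higher and 1 lower than in SCs, 5 and 1 than in SMMCs, and 8 and 1 than in MΦ. Against VECs 10 were higher and 0 lower, and against LECs 8 and 0.

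The fibulins FBLN2 and FBLN5, which belong to elastic fibres, were at lower levels. FBLN5 was at 6.98, 11.9 and 17.8 CPM in FAPs and at 1.69 to 4.47 CPM in SCs (log2FC 1.72 ± 0.21), its smallest difference. FBLN2 was at 43.3, 68.9 and 88.7 CPM, with its smallest log2FC over VECs (1.05 ± 0.13). VCAN, the large hyaluronan-binding proteoglycan versican, was at 437, 640 and 1044 CPM in FAPs, with a log2FC of 4.00 ± 0.23 over VECs but of 1.03 ± 0.30 over MΦ, whose animals (137 to 606 CPM) overlapped with FAPs. HAPLN3, which links hyaluronan to such proteoglycans, passed by the narrowest margin (1.01 over MΦ). The lowest members of the 26 were HAPLN3, MEDAG (1.01), VCAN (1.03), FBLN2 (1.05) and BCO2 (1.06), each by its smallest log2FC. Just outside the limit lay COL14A1, at 0.997 over MΦ.

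Both an enzyme that makes prostaglandins and one that breaks them down were in the list. PTGS2 (cyclooxygenase 2) was at 17.0, 35.5 and 47.9 CPM in FAPs and at 1.57 to 3.01 CPM in SCs, a log2FC of 3.79 ± 0.20. Its smallest log2FC was 1.75 ± 0.52, over LECs. The highest animals of VECs (27.9 CPM), LECs (25.3 CPM) and MΦ (22.8 CPM) lay within the range of FAPs, and no animal of SCs or SMMCs did. HPGD was at 67.2, 350 and 860 CPM in FAPs and at 14.5 to 47.8 CPM in SCs (log2FC 3.74 ± 0.40). SMMCs (31.1 to 258 CPM), LECs (20.3 to 177 CPM) and MΦ (54.9 to 179 CPM) reached into the range of FAPs, whose lowest animal was animal 5.

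Among regulators, GSC, the homeobox factor goosecoid, had the largest smallest difference of the 26. It was at 7.65, 10.0 and 16.3 CPM in FAPs, at 0 to 2.02 CPM in SCs (log2FC 3.06 ± 0.21) and at 0 to 4.10 CPM in VECs (3.24 ± 0.32). No GSC UMI was found in the sums of LECs and MΦ. Against the floor of 3 UMIs over the whole group, FAPs were at least 6.13-fold higher than LECs and at least 3.98-fold higher than MΦ. A GSC UMI was present in 20.2% of FAPs and 2.28% of SCs, or in 4.68% and 0.769% at 5000 UMIs per cell. TWIST2, a mesenchymal bHLH factor, was at 14.5, 17.4 and 21.1 CPM in FAPs and at no more than 10.2 CPM in any animal of another type, with log2FCs from 1.41 ± 0.17 (SCs) to 2.69 ± 0.24 (VECs). ZNF385D, a zinc finger gene, had a smallest log2FC of 1.72.

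Signalling genes of the list were PDGFRA, CSF1, ROR2, F2RL2 and HTR2A. CSF1, the growth factor on which macrophages depend, was at 559, 693 and 1006 CPM in FAPs, above SCs (292 to 413 CPM, log2FC 1.18 ± 0.10) and above MΦ (123 to 555 CPM, 1.26 ± 0.27). No other type overlapped with FAPs. ROR2, a receptor for WNT5A, was at 12.9, 17.1 and 19.7 CPM, with SCs reaching 13.0 CPM and MΦ 16.3 CPM. F2RL2, a thrombin receptor of the PAR family, was at 77.6, 106 and 221 CPM, highest in animal 5, and without that animal its smallest log2FC was 0.97, below the limit. The serotonin receptor HTR2A was at 3.31, 6.01 and 7.70 CPM and without a UMI in LECs, against whose floor FAPs were at least 3.42-fold higher.

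Channels, transporters and enzymes completed the list. TMEM119, a membrane protein known from osteoblasts and microglia, was at 49.9, 67.9 and 77.7 CPM in FAPs and at most 45.7 CPM in any other type and animal. KCNK12, a 2-pore potassium channel subunit, was at 63.4, 81.2 and 116 CPM, above all types (at most 57.1 CPM). FBP2, the muscle isozyme of fructose-bisphosphatase, was at 35.1, 42.4 and 69.6 CPM and at most 28.4 CPM elsewhere. For these genes FAPs did not overlap with another type. CA4, a carbonic anhydrase on the cell surface, ranged widely, from 39.1 CPM in animal 5 to 300 CPM in animal 1 (299.5, with the next at 167 CPM), and its smallest log2FC was 1.197 ± 0.42 over SMMCs. The rest were SLC22A4 (an organic cation transporter), BCO2 (a carotenoid-cleaving enzyme), MEDAG (an adipogenesis gene), PERP (a p53 target of cell junctions) and an unnamed gene (ENSBTAG00000038233), with smallest log2FCs of 1.01 to 1.42.

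**Figure D3:**
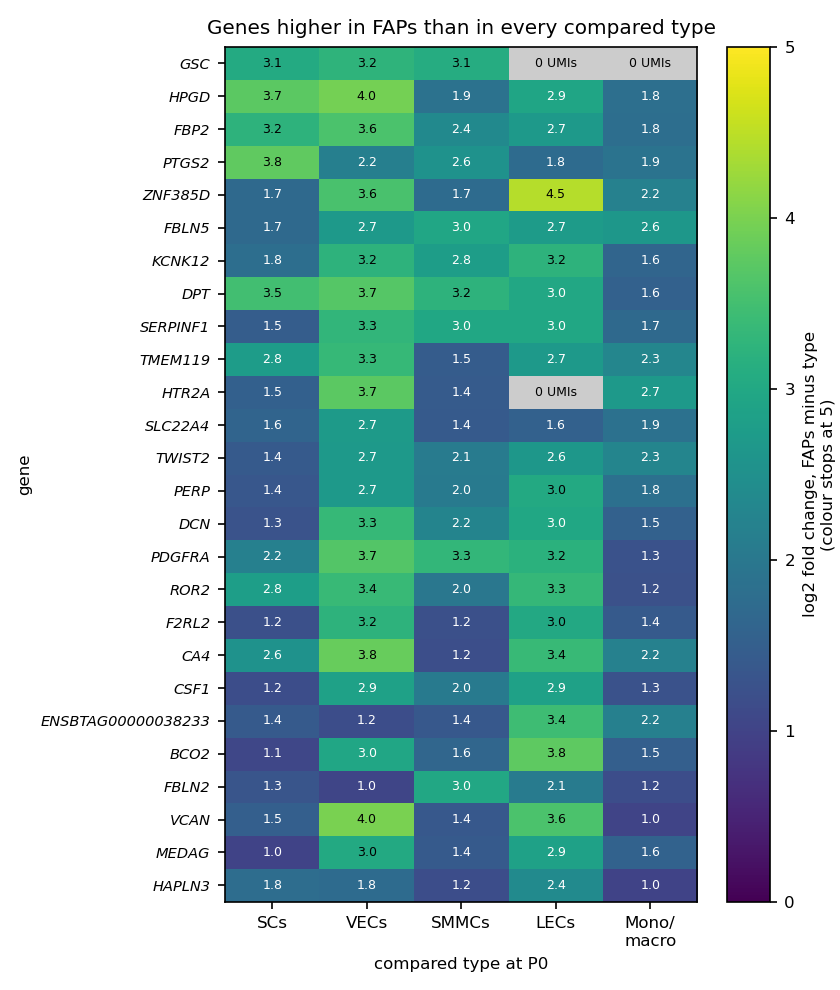
The 26 genes higher in FAPs than in each of 5 other types at P0, in rows, with the log2FC of FAPs over each type in columns, as colour and number. Grey fields mark a type without a UMI of the gene. GSC has a log2FC of at least 3.06 in each column with a value, and HAPLN3 has the smallest at 1.01.

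How many genes marked FAPs, and which, rested on the animals, types and settings used. With 1 animal left out at a time the count was 15 to 29, and 15 without animal 1. The 12 genes CSF1, DCN, DPT, FBP2, GSC, KCNK12, PDGFRA, PTGS2, SERPINF1, SLC22A4, TMEM119 and TWIST2 were called in all 9 of these sets. Without animal 5 the count was 20, of which 18 were among the 26. The 8 genes that lost the call were F2RL2, FBLN2, HAPLN3 and MEDAG, whose smallest log2FC fell to 0.889 to 0.987, and BCO2, FBLN5, PERP and ENSBTAG00000038233, whose largest adjusted p rose to between 0.0540 and 0.0987 in edgeR. With the animal as a block 34 genes were called, 24 of them among the 26. CA4 (smallest log2FC 0.918) and MEDAG (0.9986) lost the call, and COL14A1, MFAP5, FBLN1 and HAS2 were among the 10 that gained it. When FAP sums were thinned to the UMIs of the compared type, in animals with both types only, 5 genes were called. DCN, HPGD, PDGFRA and SERPINF1 were the 4 shared with the 26. With other size factors 21 genes were called, 20 of them among the 26, without BCO2, FBLN5, HAPLN3, VCAN, ZNF385D and ENSBTAG00000038233. DESeq2 called 28, of which 20 were among the 26, without BCO2, HAPLN3, HTR2A, MEDAG, ROR2 and VCAN. Leaving MΦ out of the comparison, a choice made after seeing the data, raised the count to 57.

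The levels of FAP genes in the other types depended on the genes chosen. Over the 18 of the 26 genes with at least 20 CPM in FAPs, MΦ were at a median of 33.1% of the FAP level (20.0 to 48.7%), SCs at 29.9%, SMMCs at 24.6%, LECs at 14.4% and VECs at 10.3%, where the choice of these genes keeps values to about 50% or less. Over 116 muscle FAP genes with such a level the order was another, with SMMCs at 80.0%, SCs at 67.1%, MΦ at 46.0%, LECs at 28.5% and VECs at 25.6%. Per cell, the 15 stromal markers took a median of 0.656% of UMIs in FAPs, 0.370% in SCs, 0.247% in SMMCs and 0.155% in MΦ. In LECs it was 0.0773% and in VECs 0.0578%. The upper quartile was 0.489% in SCs, 0.416% in SMMCs and 0.419% in MΦ. The MΦ markers themselves summed to 11339 to 22509 CPM in MΦ and to 15.4 to 44.3 CPM in FAPs. The part of cells holding RNA of both types in these values was not tested. Within FAPs, at least 10 UMIs of the 8 VEC markers were found in 61 cells (1.06%), of the 10 MΦ markers in 43 (0.747%), of the 7 SMMC markers in 135 (2.35%) and of the 8 SC markers in 0. For the 6 LEC markers it was 403 FAPs (7.00%), where PDPN (podoplanin, which fibroblasts also carry) was at 106, 154 and 198 CPM, against 120 to 252 CPM in SCs and 337 to 756 CPM in LECs.

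Of the 11 genes lower in FAPs than in every type, PDGFA, a ligand of PDGFRα, had the largest smallest difference. It was at 1.51, 2.64 and 4.46 CPM in FAPs, at 21.0 to 49.9 CPM in SCs (log2FC -3.53 ± 0.22), 48.4 to 223 CPM in VECs (-5.01 ± 0.30) and 92.1 to 217 CPM in SMMCs (-5.76 ± 0.23). FAPs lay below every animal of these types and of LECs (6.5 to 30.1 CPM), whereas 1 MΦ animal was at 0 (0 to 50.9 CPM). FOXP1, a forkhead repressor, was at 5.44, 8.57 and 9.88 CPM in FAPs, below the 16.3 to 21.97 CPM of SCs (-1.13 ± 0.10) and the 24.8 to 52.5 CPM of LECs (-2.33 ± 0.19). LTC4S, which makes leukotriene C4, was at 0.813, 1.05 and 1.72 CPM in FAPs, with a log2FC of -1.75 ± 0.21 against SCs. The others were PPP1R9A, BEX2 (ENSBTAG00000036028), LFNG, SLC12A7, SYNGR2, CORO7, MAN2B1 and FAM229A, with levels of 0.739 to 17.2 CPM in FAPs. The call of BEX2 holds for this identifier only, since its symbol is shared with another. With FAP sums thinned to the other type none of the 11 was called, and no other gene was.

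The genes that differed most from each single type were as follows. Over SCs, FAPs were highest in COL6A3, HAS2 (hyaluronan synthase, 25.4 to 68.5 CPM, log2FC 3.93 ± 0.26), EBF2 (3.85 ± 0.24) and ALDH1A3, which makes retinoic acid (3.78 ± 0.36), in 9 of 9 animals each. They were lowest in the growth factor BTC (-5.38 ± 0.37) and in PAX7, the transcription factor that defines SCs (0 to 0.194 CPM in FAPs, log2FC -5.02 ± 0.26). Over VECs, IL18R1 (5.21 ± 0.63) and PDGFRB (4.54 ± 0.42) were among the highest, and PECAM1, an adhesion protein of endothelium, was at 5.65 ± 1.81 CPM in FAPs and 1019 CPM in VECs (-7.56 ± 0.15). Against SMMCs, MYBPHL (-7.66 ± 0.34) and the Wnt inhibitor DKK1 (-7.41 ± 0.46) were lowest in FAPs. Against LECs the platelet and lymphatic protein MMRN1 was lowest (-9.71 ± 0.16), and against MΦ the scavenger receptor MSR1 (-11.34 ± 0.24).

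Gene groups were then counted against each type, and their counts are to be read against the shares of all genes called. These were 4.69% higher and 5.98% lower for SCs, 13.4% and 13.9% for VECs, 4.81% and 6.45% for SMMCs, 11.9% and 10.1% for LECs, and 6.06% and 7.35% for MΦ. Of 13 tested interstitial collagen genes, 7 were higher in FAPs than in SCs and 0 lower, 12 higher and 1 lower than in VECs, 9 higher and 0 lower than in MΦ, and 1 higher and 2 lower than in SMMCs. Against LECs 10 of 14 were higher and 1 lower. COL1A1, a chain of the main fibrillar collagen, was at 684 ± 196 CPM in FAPs, with a log2FC of 2.34 ± 0.26 over SCs and 0.60 ± 0.22 over SMMCs. COL6A3, a chain of the beaded collagen VI that surrounds SCs in muscle, was at 29.4 ± 4.87 CPM, with a log2FC of 4.01 ± 0.20 over SCs and 0.07 ± 0.18 over SMMCs. No collagen was called higher in FAPs than in all 5 types, but with the animal as a block COL14A1 was, at 1.09 ± 0.30 over MΦ. The median log2FC of the group was 1.28 over SCs, 2.85 over VECs, 0.31 over SMMCs, 2.27 over LECs and 1.47 over MΦ. Over all tested genes the medians were -0.01, 0.03, 0.04, 0.16 and 0.21. With size factors computed by the relative log expression method the last of these (MΦ) was 0.09.

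Of 18 tested genes of elastic fibres and of collagen crosslinking, 9 were higher in FAPs than in SMMCs and 2 lower, with a median log2FC of 1.77. Against SCs 6 of 18 were higher and 2 lower, against VECs 15 of 16 and 0, against LECs 9 of 18 and 0, and against MΦ 6 of 18 and 0. FBN1 (fibrillin 1, the microfibril scaffold) was at 512 ± 78.4 CPM in FAPs, with a log2FC of 2.07 ± 0.16 over SMMCs and 0.22 ± 0.10 over SCs. LOXL1, which crosslinks elastin, had a log2FC of 2.21 ± 0.15 over SMMCs and 0.59 ± 0.10 over SCs. Of the small leucine-rich proteoglycans, 6 of 7 tested were higher in FAPs than in SCs, 6 than in VECs, 5 than in LECs and 3 than in MΦ, with 0 lower, while 2 of 8 were higher and 3 lower than in SMMCs. BGN (biglycan) was at 329 ± 26.0 CPM in FAPs, 2.96 ± 0.22 above SCs and -0.41 ± 0.13 from SMMCs on the log2 scale.

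Contractile and myofibroblast genes were lower in FAPs than in SMMCs for 13 of 15 tested and higher for 0. ACTA2, smooth muscle actin, was at 20.1, 36.8 and 55.9 CPM in FAPs and at 937, 3049 and 5418 CPM in SMMCs (log2FC -6.21 ± 0.39), without overlap. Of 14 tested against each other type, 5 were higher in FAPs and 1 lower than in SCs, 4 and 4 than in VECs, 6 and 0 than in LECs and 3 and 0 than in MΦ. CD248 (endosialin, a stromal surface antigen) was lower in FAPs than in SMMCs, at a log2FC of -1.51 ± 0.14, as was PDGFRB, a receptor of mural cells, at -1.66 ± 0.20. Both were higher than in SCs, at 2.93 ± 0.14 and 2.19 ± 0.24.

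Genes of cytokines, chemokines and prostaglandin synthesis were split by type. Of 20 tested, 10 were higher in FAPs than in SCs and 2 lower, and of 19 tested, 9 were higher than in SMMCs and 2 lower. Against VECs 8 of 18 were higher and 4 lower, and against LECs 4 of 19 and 5. Against MΦ 1 of 21, PTGS2 (log2FC 1.91 ± 0.58), was higher and 10 were lower. CXCL5, a neutrophil chemokine, was at 3929, 8186 and 9552 CPM in FAPs, with a log2FC of 2.69 ± 0.27 over SCs, 1.79 ± 0.33 over SMMCs and -1.06 ± 0.23 against MΦ. IL6 was at 401 ± 142 CPM, 2.32 ± 0.23 over SCs and -0.04 ± 0.30 against MΦ, and the monocyte chemokine CCL2 was -3.30 ± 0.21 against MΦ. Complement genes gave 3 of 11 higher and 2 lower against SCs, 7 of 13 and 1 against SMMCs, 8 of 11 and 1 against VECs, 1 of 12 and 1 against LECs, and 2 of 12 and 2 against MΦ. These counts include animal 5, whose FAPs were above all others in CFB, C1R and C1S, and were not made without it.

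Of 15 tested adipogenic and lipid genes 3 were higher in FAPs than in SCs and 2 lower, with a median log2FC of -0.14. Against VECs 8 of 14 were higher and 1 lower (median 1.42), against LECs 5 of 15 and 0 (median 1.13), against SMMCs 2 of 15 and 4 (median -0.32), and against MΦ 2 of 15 and 2 (median 0.33). PPARG, the master regulator of fat cells, was at 2.33, 6.35 and 12.2 CPM in FAPs and 0.85 ± 0.34 above SCs, which did not pass. FABP4, a fatty acid carrier of adipocytes, was lower in FAPs than in SCs (-1.39 ± 0.29) and SMMCs (-3.69 ± 0.39). PLIN2, which coats lipid droplets, was at 674 ± 103.5 CPM and higher than in VECs (1.34 ± 0.10) and SMMCs (1.85 ± 0.14). Of the 4 markers of mature adipocytes none had enough counts to be tested against any type.

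Receptors and secreted signals came next. Of 28 tested growth factor receptors 5 were higher in FAPs than in SCs and 4 lower, with PDGFRA the one member above every type. Against VECs 8 of 24 were higher and 6 lower, against LECs 8 of 25 and 5, against SMMCs 3 of 25 and 1, and against MΦ 6 of 25 and 0. TGFBR3, the TGF-β co-receptor betaglycan, was at 69.5 ± 10.0 CPM, 2.77 ± 0.14 above VECs and 0.36 ± 0.16 above SCs. Of the secreted growth factors 6 of 26 were higher and 7 lower than in SCs, 5 of 25 higher and 9 lower than in SMMCs, 7 of 21 and 6 than in VECs, 8 of 25 and 6 than in LECs, and 4 of 24 and 4 than in MΦ. Of the secreted modulators (among them antagonists, IGF-binding proteins and Wnt ligands) 9 of 22 were higher and 7 lower than in SCs, 12 of 19 and 4 than in VECs, 3 of 23 and 7 than in SMMCs, 7 of 20 and 5 than in LECs, and 6 of 21 and 0 than in MΦ. FGF7, a stromal factor for epithelium, was 1.85 ± 0.37 above SCs, and INHBA, the activin A subunit, 2.89 ± 0.30 above SCs.

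Of 14 tested basement membrane genes 3 were higher and 7 lower in FAPs than in VECs, 1 higher and 4 lower than in SCs, and 3 higher and 5 lower than in SMMCs. Against LECs 3 of 13 were higher and 1 lower, and against MΦ 6 of 12 and 0. COL4A1, a chain of collagen IV, was at 557 ± 49.2 CPM, -1.85 ± 0.09 against VECs and -1.51 ± 0.07 against SMMCs, and LAMA5 (a laminin chain) was -3.07 ± 0.22 against SCs. Of 12 integrin subunits tested, 3 were higher and 3 lower than in SCs, 1 higher and 5 lower than in SMMCs, 2 and 6 than in VECs, and 0 and 1 than in MΦ. Against LECs 1 of 13 was higher and 5 lower. ITGA5, the α5 subunit of the fibronectin receptor, was at 156 ± 14.1 CPM, 1.5 ± 0.06 above SCs and -0.56 ± 0.06 against VECs, and ITGA3, of a laminin receptor, was -2.44 ± 0.17 against SCs.

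Of 29 tested mesenchymal transcription factors 17 were higher in FAPs than in VECs and 6 lower. Against SCs 8 of 33 were higher and 5 lower, against SMMCs 9 of 33 and 4, against LECs 12 of 32 and 6, and against MΦ 8 of 32 and 1. PRRX1, a limb mesenchyme homeobox factor, was at 280 ± 37.9 CPM, 1.29 ± 0.15 above SCs and 3.34 ± 0.14 above VECs, and at -0.78 ± 0.13 against SMMCs. TWIST1 was at 46.5 ± 10.0 CPM and 3.43 ± 0.18 above SCs. OSR1, a factor of developing FAPs, was at 30.6 ± 8.22 CPM, 2.98 ± 0.29 above VECs and 0.94 ± 0.22 above SCs, below the limit. Cell cycle genes were counted last. Of 37 tested, 27 were higher and 3 lower than in VECs, 27 and 1 than in LECs and 22 and 0 than in MΦ. Against SCs 1 was higher and 1 lower, and against SMMCs 2 and 1, shares near or below those over all genes. The proliferation antigen MKI67 was at 170, 191 and 219 CPM in FAPs, -0.20 ± 0.07 against SCs and 1.82 ± 0.21 above VECs.

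**Figure D4:**
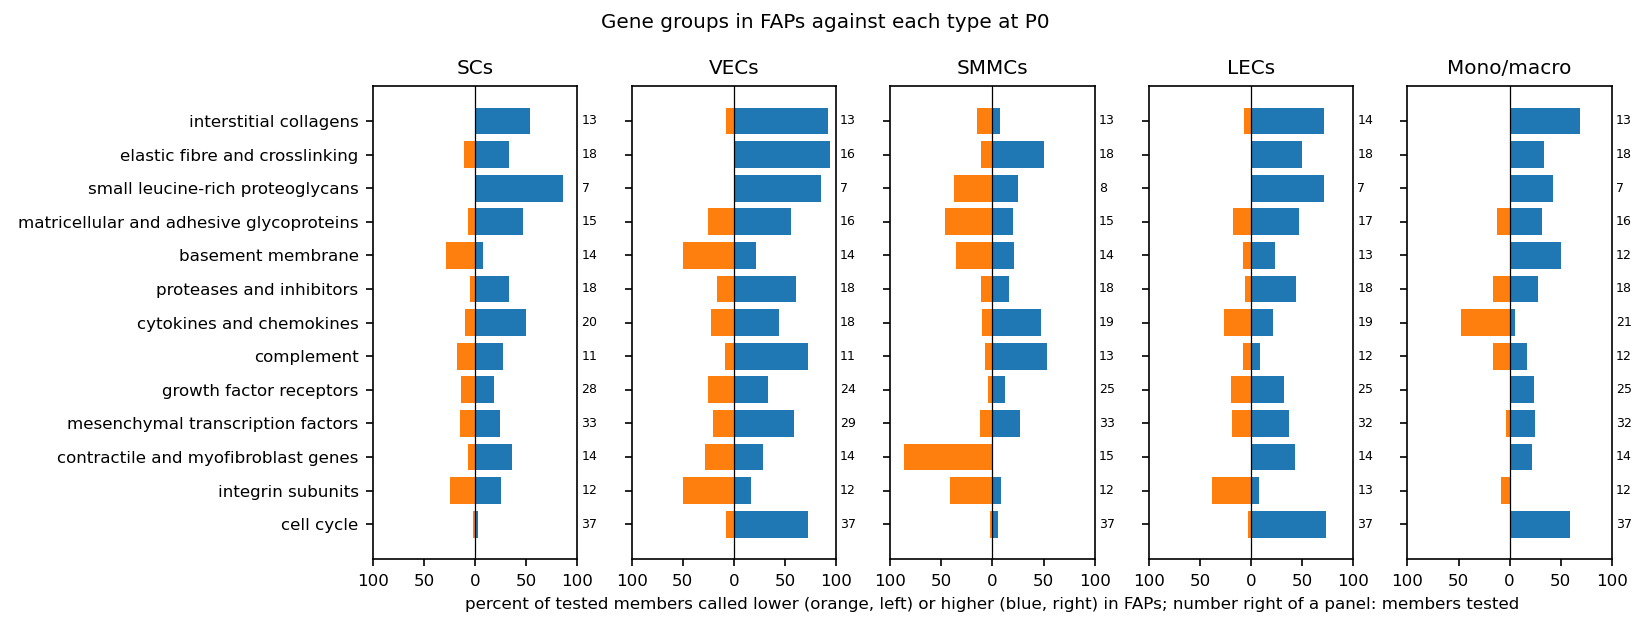
Percent of the tested members of 13 gene groups called higher (blue) or lower (orange) in FAPs than in SCs, VECs, SMMCs, LECs and MΦ at P0, 1 panel per type, with the number of tested members. Of 13 collagens 12 were higher than in VECs and 1 higher than in SMMCs, and of 15 contractile genes 13 were lower than in SMMCs.

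The FAP genes of muscle, before culture, were compared with those of P0. The same rule applied to 1231 FAPs of 10 animals at Timepoint 1 called 191 of 3706 genes (5.15%) higher in FAPs than in each of the same 5 types. LECs had at least 10 cells in only 4 animals there. The lymphocytes, neutrophils, tenocytes, myocytes and glial cells of muscle were not compared. This list was chosen on these muscle cells for large differences. At P0, 166 of the 191 could be tested against all 5 types, and 11 were higher than every type, namely CSF1, DCN, DPT, F2RL2, FBLN2, FBLN5, HPGD, MEDAG, PDGFRA, SERPINF1 and VCAN. Of these 166, another 32 were higher than 4 types, 33 higher than none and 32 lower than at least 1 type. Of all 10177 genes tested at P0, 0.255% were higher than every type, 0.924% higher than 4, 76.1% higher than none and 22.1% lower than at least 1. In the other direction, 11 of the 26 P0 genes could be tested against all 5 types in muscle, and the same 11 were called there. The others, such as CA4 and TMEM119, did not pass the filter on low counts there for every type. A gene can pass that filter through its counts in FAPs alone, so this agreement is no independent test. Without animal 5 the count was 8, with F2RL2, FBLN2, FBLN5 and MEDAG lost and NOVA1 gained. The count of 11 was 7 without animal 4, 7 without animal 7 and up to 15 without another animal, and 19 when MΦ were left out, a choice made after seeing the data.

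Most of these genes had a lower level at P0. Mean CPM in FAPs was lower than in muscle for 182 of the 191, and for 2048 of all 3706 genes tested in muscle (55.3%). Since the 191 were chosen as high in muscle FAPs, a lower level at P0 is partly built in. PI16, a marker of adventitial fibroblasts, went from 516 CPM in muscle to 0.350 CPM at P0, MFAP5 (a microfibril protein) from 4041 to 18.5 CPM and DPT from 1352 to 70.8 CPM. DCN was at 19369 CPM in muscle and 2858 CPM at P0, and PDGFRA at 794 and 277 CPM. CSF1 (131 to 737 CPM), SFRP4 (a secreted Wnt antagonist, 642 to 1283 CPM) and VCAN (553 to 666 CPM) were higher at P0. These are shares of all UMIs of 2 libraries, and the library and the timepoint cannot be told apart.

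The difference between FAPs and another type was therefore tested between P0 and muscle, with animals as replicates, as an interaction in edgeR's quasi-likelihood test. The main model here too had no term for the animal, so its p-values ignore that the same animals gave the sums. For FAPs over SCs, 1089 of 8751 genes (12.4%) had a smaller log2FC at P0 and 665 (7.60%) a larger one. For SMMCs the counts were 855 of 7431 (11.5%) and 417 (5.61%). For VECs they were 1017 of 8613 (11.8%) smaller and 1191 (13.8%) larger, a balance that turned to 1220 smaller and 1020 larger with the animal as a block and to 1142 and 1055 with other size factors. It also turned without any single animal other than animal 5 (1163 to 1283 smaller, 870 to 1036 larger). Of the 191 muscle genes, 158 had a smaller log2FC over SCs at P0, 145 over VECs and 150 over SMMCs, and 0, 1 and 0 a larger one. Their median change in log2FC was -2.75 (SCs), -2.14 (VECs) and -2.57 (SMMCs), against 0.03, 0.09 and -0.09 over all genes tested. Since the list was chosen for its size in muscle, these counts describe it and are not independent of that choice.

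The named markers moved by different amounts. For DCN the log2FC over SCs was 6.91 in muscle and 1.29 at P0, a change of -5.55 ± 0.47 (adjusted p = 1.3e-11), and for LUM (lumican) 6.61 and 0.41, a change of -6.15 ± 0.47 (adjusted p = 7.26e-13). PDGFRA changed by -4.10 ± 0.40 against SCs (adjusted p = 1.68e-10), by -1.98 ± 0.39 against VECs (adjusted p = 5.97e-05) and by -3.97 ± 0.52 against SMMCs (adjusted p = 1.93e-07). The change of SCARA5 against SCs, -2.99 ± 1.61, did not pass (adjusted p = 0.141). FAP, the gene of fibroblast activation protein, a cell surface protease, was above VECs in muscle (4.5) and below them at P0 (-2.09), a change of -6.52 ± 0.35 (adjusted p = 4.8e-19). GSN, the actin-severing protein gelsolin, went from 1.90 to -2.46 over SCs, a change of -4.37 ± 0.24 (adjusted p = 2.09e-16).

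Other differences were larger at P0 or did not pass the test. CSF1 changed by -0.14 ± 0.31 against SCs (adjusted p = 0.77) and by 1.05 ± 0.23 against VECs (adjusted p = 0.00024). CA4 rose over VECs by 7.94 ± 0.59 (adjusted p = 1.69e-13) and over SMMCs by 3.57 ± 0.65 (adjusted p = 4.91e-05), with a mean of 5.86 CPM in muscle FAPs and 127 CPM at P0. FBP2 rose over VECs by 3.17 ± 1.04 (adjusted p = 0.0103). TMEM119, at 7.38 CPM in muscle FAPs and 66.2 CPM at P0, changed by -0.40 ± 1.15 over SCs (adjusted p = 0.819), so that its difference between the types could not be told from that in muscle at this depth. Muscle FAP sums held a median of 612204 UMIs.

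**Figure D5:**
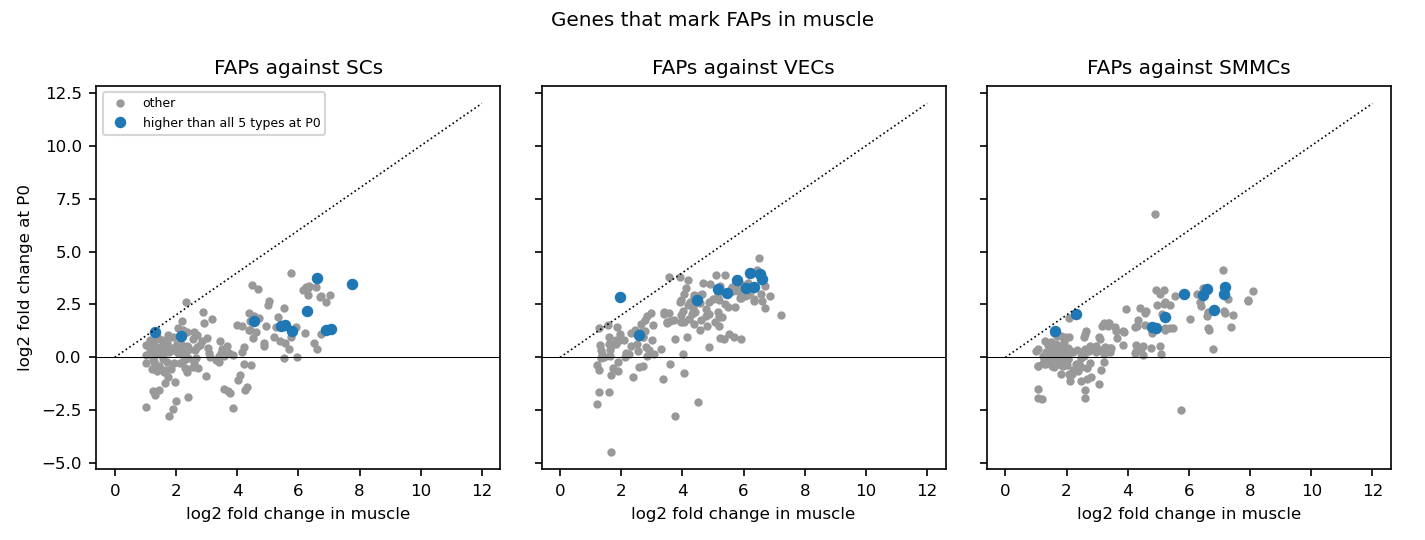
Log2FC of FAPs over SCs, VECs and SMMCs, 1 panel each, in muscle (horizontal axis) and at P0 (vertical axis) for the muscle FAP genes tested at both, with the line of equal values. Points in blue are the 11 genes higher than each of the 5 types at both, such as DCN at 6.91 and 1.29 over SCs. Nearly all points lie under the line.

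Across later passages the P0 markers went separate ways. These FAPs came from cultures that had been sorted for FAPs, sorted for SCs or left unsorted, each timepoint being 1 library, so the values are given without a test. PDGFRA was at 277 CPM at P0, 318 CPM at P2, 301 CPM at P5 and 193 CPM at P8. TMEM119 was at 66.2 CPM at P0, 103 CPM at P2, 112 CPM at P5 and 88.1 CPM at P8, and CA4 at 127, 423, 586 and 669 CPM. GSC was at 35.9 CPM in muscle, 10.7 CPM at P0 and 5.53 CPM at P8. PTGS2 was at 73.4 CPM in muscle and at 33.8, 15.8, 8.48 and 16.9 CPM from P0 to P8. DCN (2858 CPM at P0, 7748 CPM at P2) and SERPINF1 (149 and 598 CPM) were higher at P2 than at P0, whereas PI16 stayed at or under 0.350 CPM at every passage.

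P0 FAPs held more UMIs per cell than the other types. The mean over animals of the median UMIs per cell was 23531 ± 3820 (SD, n = 9) in FAPs, 18450 in SCs, 12987 in VECs, 11499 in SMMCs, 9309 in LECs and 7055 in MΦ. The paired difference was 10545 ± 4161 UMIs for VECs, in 9 of 9 animals (2-sided exact sign-flip permutation test, p = 0.00391, the smallest possible for 9 pairs, adjusted p = 0.0195 over 15 tests). For SCs it was 5082 ± 5531 UMIs, in 8 of 9 animals (exact p = 0.0391, adjusted p = 0.0419). For SMMCs, LECs and MΦ it was positive in 7 of 7 animals (exact p = 0.0156, the smallest possible, adjusted p = 0.0213). Genes per cell differed in the same direction, with 4344 in FAPs and 3895 in SCs (8 of 9 animals, exact adjusted p = 0.0419), but as a mean over cells the difference was 217 and did not pass. The mitochondrial share was 2.99% in FAPs and 2.99% in SCs (higher in 3 of 9 animals, exact p = 0.938). It was 1.43% in VECs (FAPs higher in 9 of 9 animals, exact adjusted p = 0.0195) and 2.50% in SMMCs (6 of 7, 0.0391). In LECs it was 1.97% and in MΦ 2.17% (7 of 7 each, exact adjusted p = 0.0213). By the authors' phase call, 78.7 ± 5.59% of FAPs were in S or G2M phase, 64.9% of SCs, 49.5% of SMMCs, 32.3% of MΦ, 16.0% of LECs and 14.9% of VECs. The phase call reads cell cycle genes, which also differed between clusters, so these shares are a description.

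Within P0 FAPs, the genes that differed most between cells were led by PTX3. Ranked by the variance of Pearson residuals within animals (median of 9431 genes 1.11), the top genes were PTX3 (a long pentraxin, 32.2), ARAF (28.1), MT1A (a metallothionein, 26.3), S100A4 (21.0), HPGD (19.6), MT2A (16.8), CXCL5 (15.9), THBS1 (15.7), IL6 (15.4) and CXCL2 (15.2). Of the first 15, 12 were among the first 15 with cells thinned to 5000 UMIs and 11 among the 1196 cells called G1. PTX3 ranked 2 in both of these sets, behind ARAF in thinned cells and behind MT1A in G1 cells. HPGD had a UMI in 64.5% of FAPs and THBS1 in 77.2%. PTX3 and HPGD residuals correlated weakly over cells, with a mean r of 0.243 over 9 animals and a lowest of -0.01. All cells of an animal share a culture and a library, so these are descriptions.

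Animals differed little for most genes. Over 4963 genes with a symbol and a mean of at least 20 CPM in FAPs, the median SD between animals was 0.122 on the log2 CPM scale, and 14 genes exceeded 1. The largest was PI3, an elastase inhibitor, at 1.18 to 115 CPM, highest in animals 9 and 1. CCL11, an eosinophil chemokine, ranged from 2.32 CPM (animal 5) to 95.6 CPM (animal 1). TGM3, a transglutaminase, was highest in animal 4 (241 CPM) and lowest in animal 1 (12.1 CPM). CYP1A1, a target of the aryl hydrocarbon receptor, lay between 5.33 and 65.5 CPM, again highest in animal 1. Between 5 calves and 4 adults none of 11466 genes was called (0 in each direction) by edgeR's quasi-likelihood test (smallest adjusted p = 0.717), and 575 genes (5.01%) had an unadjusted p below 0.05. DESeq2 called 8, and without animal 10 edgeR called 1.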

How the data were processed

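The authors aligned the reads of each 10x library with Cell Ranger 6.0.1 to ARS-UCD1.2 with Ensembl annotation, and deposited raw UMI counts per gene and barcode. Where a library was sequenced in a second run (P0, P2 and P5), that run was taken to be included in these counts. The deposited cell tables hold, for cells kept by the quality control of the authors, the animal called by demuxlet, the cell type, the cell cycle phase, the number of UMIs and genes per cell (counts) and the percent of mitochondrial UMIs, which was computed by the authors. A deposited table of corrected counts over all libraries and 17 columns of the cell tables were not used. The age and sex of an animal were taken from the study's list by animal number. The type labels were made by the authors from clusters of the same values.

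Counts were summed per animal and type where an animal had at least 10 cells. Low genes were dropped with filterByExpr, libraries scaled by TMM, and the sums compared by the robust quasi-likelihood test of edgeR 4.0.16 in R 4.3.3, 1 model per pair of types, with p-values adjusted by Benjamini-Hochberg over all genes tested. SE is the log2FC divided by the root of F. DESeq2 1.42.0, other size factors, thinning, a detection limit of 50% of cells, no filter, single animals left out and the animal as a block were tried. Animals pair the types, since the sums come from the same animal. Of the models of counts, only those with the animal as a block used this pairing. Deviations of FAPs and SCs of the same animal correlated at 0.362 to 0.677 over 4749 genes, in each of 9 animals above those of all other animals (at most 0.351). Per-cell measures were compared by exact sign-flip permutation tests over animals. Scripts were tested on simulated counts.

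The genes and lists were chosen with earlier results of these data known. Genes were named by rank: the 3 markers and a stromal list, the 15 highest and 10 lowest against every type, the 5 largest per pair and direction, up to 4 members per list by level or by log2FC, the 10 genes that varied most between animals, the 15 most variable genes among cells, and muscle genes with the largest differences or changes. The other genes of the 26 and 11, genes of animal 5, CD248, MKI67, FABP4, PPARG, OSR1, INHBA, LAMA5, ITGA3, CLU, CDKN1A, PDPN, NOVA1, FBLN1 and COL14A1 were named after their values were seen. Nothing shows that an animal was cultured more than once, and the animals shared 1 library. Genes that share a symbol (68 symbols) were kept apart by identifier. No sequences or genome coordinates are given.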

Additional observations from a re-analysis of the deposited data

Results flagged for a closer look

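In the P0 FAPs of 9 animals, 47 genes were examined for an animal far from the rest by Dixon's gap ratio, which chance alone exceeds in about 1 group in 20. Animal 5 was the highest, by this measure, for PDGFRA (500 CPM, 499.9, with the next animal at 320 CPM), SCARA5 (54.9 and 5.55 CPM), DPT (119 and 82.2 CPM), SERPINF1 (228 and 159 CPM), F2RL2 (221 and 134 CPM), GSC (16.3 and 11.3 CPM), LUM (482 and 378 CPM), GSN (231 and 130 CPM), MFAP5 (51.1 and 18.8 CPM) and THY1, a stromal surface antigen (93.3 and 34.0 CPM). These genes were not chosen independently of each other, and 10 of these 12 genes concern this animal. THY1 was called lower in FAPs than in SMMCs, at a log2FC of -1.28 ± 0.37, and at -1.68 ± 0.14 without animal 5. In muscle, MFAP5 (5266 CPM against at most 4939 CPM) and THY1 (867 against at most 760 CPM) of animal 5 were also above the other animals, SCARA5, LUM, DPT and PDGFRA lay within their range and GSN below it. CA4 was highest in animal 1 (299.5 CPM, next 167 CPM), and FOXP1 was lowest in animal 9 (5.44 CPM, next 7.93 CPM).

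Of 12 markers examined (the 3 of the label and the highest muscle FAP genes, chosen for a large log2FC in muscle), the log2FC of FAPs over SCs and over VECs differed between P0 and muscle for 9, all being smaller at P0 by the interaction in edgeR. SCARA5, ISLR and SPP2 did not pass against either type. The changes over SCs and VECs were -4.10 and -1.98 for PDGFRA, -2.48 and -2.30 for ITGB3, -4.02 and -3.35 for LVRN (an aminopeptidase), -4.31 and -2.84 for DPT, -5.55 and -2.84 for DCN, -2.93 and -3.47 for MFAP5, -6.11 and -5.62 for PI16 (too few counts at P0 to be tested there, with 53 UMIs in FAPs and 3 each in SCs and VECs, so that the size depends on the prior count), -6.15 and -3.03 for LUM, and -3.90 and -2.66 for SERPINF1. Each timepoint is 1 library, and library and timepoint cannot be told apart.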

How the results depend on the processing

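No fold change of a gene or difference per cell among those recomputed changed sign. The median log2FC over all genes against SCs was -0.0068, and 0.0026 with other size factors. The balance of larger and smaller log2FCs over VECs between P0 and muscle turned with the replicate block (1020 and 1220), with DESeq2 (1093 and 1292) and with any single animal other than animal 5 left out (870 to 1036 and 1163 to 1283). Over the sets without 1 animal, animal 5 included, the counts were 870 to 1166 and 1033 to 1283. With no filter on low counts, 902 genes were higher and 1150 lower in FAPs than in SCs, and 1818 had a larger log2FC over VECs at P0 than in muscle. With FAP sums thinned to the other type, genes higher and lower were 756 and 965 (VECs), 122 and 261 (SMMCs), 247 and 338 (LECs), 71 and 227 (MΦ), and 5 and 0 for every type. Limited to genes detected in 50% of cells they were 91 and 91 (SCs), 403 and 412 (VECs), 119 and 134 (SMMCs), 425 and 205 (LECs), 257 and 183 (MΦ), and 15 and 0 for every type. DESeq2 gave 410 genes higher than in MΦ and 8 between calves and adults. Without MΦ, chosen after seeing the data, 57 genes were higher and 43 lower than in every type, and 19 muscle genes were kept. With P0 thinned to muscle, the interaction gave 381 larger and 650 smaller for SCs, and 521 smaller for SMMCs. Genes per cell, FAPs minus SCs, was 217 as a mean over cells and no longer passed the test. Fewer UMIs or genes enter the thinned and detected sets by construction. The sets with FAP sums thinned to the other type also hold only animals with both types. The cause of the other changes was not tested.

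Leaving out 1 animal gave 15 to 29 genes higher than every type, 7 to 15 muscle genes kept and 0 to 1 between ages. With the animal as a replicate block 34 genes were higher than every type, CA4 and MEDAG not among them, and no count moved by over 1.5 times. SCARA5 over VECs passed the threshold with the block (log2FC 2.45) and with DESeq2 (1.85). All singlets with a type label could not be used, as only cells kept by the authors carry one, and a minimum of 30 cells was not run for LECs and MΦ. Depth limits LECs and MΦ most, with medians of 247530 and 145814 UMIs per animal.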

Other observations

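Some pairs of genes varied together among the P0 FAPs of an animal. Residuals of CXCL3 and GRO1, chemokines that act on neutrophils, correlated over cells with a mean r of 0.642 over 9 animals, CXCL2 and GRO1 with 0.504, and CLU (clusterin) and CDKN1A, a cell cycle inhibitor, with 0.476. Other chemokine pairs were weaker, such as CXCL5 and CXCL2 (0.251) and CXCL2 and CCL2 (0.168). Cells of an animal share a culture and these pairs were the highest among the variable genes, so the values are a description.

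Animal 5 also had the highest value of several of the genes that varied most between animals, which were picked here after their values were seen. Beside SAA3, M-SAA3.2 (4.61 to 213 CPM), SLPI, an antiprotease (8.68 to 202 CPM), and CCL20 (2.01 to 92.0 CPM) were highest in that animal. SAA3 of animal 5 was also above the other animals in its muscle FAPs (134 CPM against 0 to 42.8 CPM), but not at P2 (8.00 CPM against 13.3 to 1096 CPM). The P2 value of animal 5 came from 19 FAPs of a culture sorted for SCs. Most of the other animals had cultures that were unsorted or sorted for FAPs, so the P2 values are not of like cells.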
